A study of Mus musculus with 9 samples.

Results

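The 10 genes described here encode the enzymes that make and break down prostaglandins E and D and the 2 receptors of prostaglandin E2 that raise cyclic AMP: Pla2g4a, Ptgs1, Ptgs2, Ptges, Ptges2, Ptges3, Hpgds, Hpgd, Ptger2 and Ptger4. They were chosen by name from the 24187 genes measured, in the knowledge that Ptgs2 was higher with NCT503 than with LPS alone, and all 10 passed the filter on low values. RNA was measured in bone-marrow-derived macrophages of 8-week-old C57BL/6 mice, grown for 6 days with the macrophage growth factor M-CSF at 10 ng/ml and then kept for 6 h in one of 3 states. One group received 500 ng/ml LPS, the bacterial lipopolysaccharide that activates macrophages through Toll-like receptor 4, together with 50 µM NCT503, an inhibitor of the serine synthesis enzyme PHGDH. The second group received 500 ng/ml LPS alone, and the control group was left in medium, with 3 libraries in each group. The labels name no vehicle for NCT503, and no library had NCT503 without LPS. The labels do not say whether the libraries of a group came from separate mice or cultures, so the p-values below measure only the spread between these libraries.

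Prostaglandins are made in steps. The cytosolic phospholipase A2 frees arachidonic acid from membranes, a cyclooxygenase turns it into prostaglandin H2, and terminal synthases turn that into prostaglandin E2, prostaglandin D2 or other prostanoids. In macrophages the inducible enzymes are known targets of Toll-like receptor signalling, and prostaglandin E2 acts back on the cells through the receptors EP2 and EP4, which couple to adenylyl cyclase.

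Levels are given as normalized reads, the reads of a gene over a size factor computed across all 9 libraries, and always in the order of libraries 1, 2 and 3 of a group. The libraries held 20295862 to 23599685 reads in the 21434 genes found in both deposited tables, and the lowest value among these 10 genes was 18 reads, for Ptgs2 in a control library. All 8 macrophage markers were measured in every state. Their summed levels were 204174 to 265680 normalized reads in LPS with NCT503, 423359 to 473403 in LPS and 270951 to 347154 in control libraries. Of the 8, 4 fell with NCT503 against LPS and 0 rose. Lyz2, the largest, stood at 92157 to 136761 with NCT503 and 213090 to 253641 in LPS, and Cd14 at 13156 to 22954 and 75244 to 90464. Csf1r (34735 to 45389 and 34631 to 39421) and Cd68 (21648 to 24096 and 19763 to 25401) overlapped between these states. Markers of other bone marrow cells moved as well: all 8 neutrophil and all 7 measured mast cell and basophil markers (6 under CPM scaling) were lower with NCT503 than with LPS alone. Within LPS with NCT503, library 2 held the lowest value of the group for 6 of the 10 genes and the highest for the other 4. Fold changes are log2 differences of normalized reads plus 1 with their standard error, tested with limma across all genes, and a gene is called at an adjusted p under 0.05.

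With NCT503 and LPS against LPS alone, 6 of the 10 genes were called: Ptgs1, Ptgs2, Hpgds and Ptger2 rose, and Ptges and Ptges2 fell. The rise of Ptgs2 was known when the genes were chosen, so its place in this count is no support for it. The share of all 19795 genes called was 32.6% (16.9% higher and 15.7% lower). The same 6 genes were those whose libraries did not overlap between the groups, a pattern that 22.9% of all genes showed as higher and 22.0% as lower. The median of the 10 log2 fold changes was 0.54, against 0.08 over all genes. This median includes Ptgs2, so it is a description and no support for a rise of the set. Without library 3 of LPS with NCT503, or without library 2 of LPS, the count was 3, with Ptgs2, Hpgds and Ptger2 still called and Ptgs1, Ptges and Ptges2 not. Over all genes these fits called fewer as well, 4334 and 4846 against 6449 with every library.

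With LPS against control, 8 of the 10 genes were called: Pla2g4a, Ptgs2, Ptges, Ptges2 and Ptges3 rose, and Ptgs1, Hpgds and Hpgd fell. Of all 19975 genes 41.8% were called (20.5% higher and 21.4% lower). Counted by libraries that did not overlap, 5 genes were higher and 4 lower, against 24.4% and 26.5% of all genes. The median over the 10 genes was 0.43, and over all genes -0.05. CPM scaling (by total reads in place of size factors) moved the median of all genes by -0.63 and the members' median to -0.27. It left the rises of Pla2g4a, Ptgs2 and Ptges called but not those of Ptges2 and Ptges3, and called 5 members lower, the 3 above with both receptors. Over all genes that scaling gave 2092 higher and 8536 lower calls, against 4089 and 4266.

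**Figure D1:**
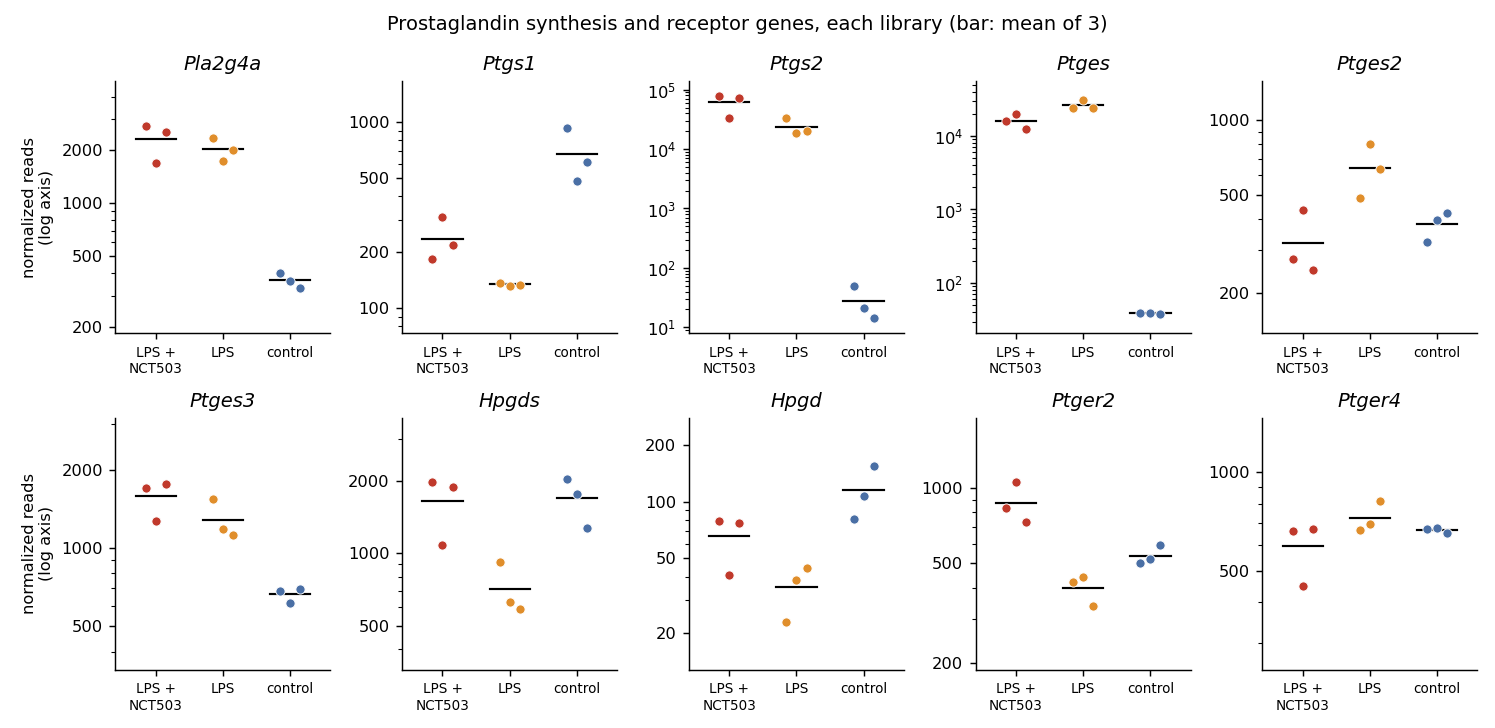
Normalized reads (log axis) of the 10 genes in each of the 9 libraries, with LPS with NCT503 left, LPS in the middle and control right; points are libraries and bars the group means. Ptgs2 and Ptges stand at 14.4 to 49.2 in control and at 12542 to 77677 in both LPS states, while Ptger4 stays between 448 and 813 throughout.

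Pla2g4a (ENSMUSG00000056220, chromosome 1, 149829618 to 149961290, minus strand, mm10) encodes cytosolic phospholipase A2, which cuts arachidonic acid from phospholipids. It had 2740, 1691 and 2543 normalized reads in LPS with NCT503, 2344, 1741 and 2004 in LPS, and 401, 363 and 331 in control libraries. Both LPS states lay above every control library and overlapped each other. LPS raised it by 2.47 ± 0.16 over control (adjusted p = 2.99e-07, limma), and the value with NCT503 against LPS was 0.18 ± 0.21 (adjusted p = 0.553, 95% interval -0.29 to 0.64). In these bulk RNA samples fewer expressing cells and less RNA per cell cannot be told apart, here and for every gene below.

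Ptgs2 (ENSMUSG00000032487, chromosome 1, 150100031 to 150108227, plus strand) encodes cyclooxygenase 2, the inducible form, and Ptgs1 (ENSMUSG00000047250, chromosome 2, 36230426 to 36252272, plus strand) encodes cyclooxygenase 1, the constitutive form. The pair went apart with LPS. Ptgs2 had 77677, 33756 and 72885 normalized reads in LPS with NCT503, 32731, 18897 and 19857 in LPS, and 49.2, 21.002 and 14.4 in control libraries, the last from 72, 30 and 18 reads. All LPS with NCT503 libraries lay above all LPS libraries, but library 2 with NCT503 stood only just above library 1 of LPS, while control libraries lay far below both. LPS raised Ptgs2 by 9.82 ± 0.39 over control (adjusted p = 8.77e-08). With NCT503 it was higher again than with LPS alone, by 1.32 ± 0.31 (adjusted p = 0.00756, 95% interval 0.63 to 2.01). That rise passed under all 18 alternative settings, at 1.11 to 1.71 with adjusted p between 2.14e-05 and 0.0447, and was 1.71 without library 2 of LPS with NCT503. It was known when the 10 genes were chosen, so these p-values and settings describe the rise and are no separate support for it.

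Ptgs1 had 184, 308 and 218 normalized reads in LPS with NCT503, 137, 132 and 134 in LPS, and 928, 487 and 611 in control libraries. The 3 groups did not overlap: control was highest, LPS lowest and LPS with NCT503 between them. Ptgs1 fell with LPS, at -2.26 ± 0.22 against control (adjusted p = 8.84e-06), and NCT503 with LPS raised it over LPS by 0.78 ± 0.23 (adjusted p = 0.0229) while it stayed below control, at -1.49 ± 0.26 (adjusted p = 0.00119). The rise with NCT503 was not called under quantile normalization (adjusted p = 0.0501), without library 3 of LPS with NCT503 (0.0645), or without library 2 (0.0653) or library 3 (0.0732) of LPS. Megakaryocytes and platelets also express Ptgs1, and 4 of their 7 markers fell with NCT503 against LPS, to summed levels of 1039 to 1763 normalized reads against 2042 to 2547 in LPS. These markers summed to 1223 to 2348 normalized reads in control libraries, and their part in the Ptgs1 values was not tested. The exons of Ptgs1 overlap Gm43621 on the opposite strand, and without a known strand setting their reads cannot be told apart.

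The promoters of the pair and of Ptges, the synthase that moved most, are shown because Ptgs2 and Ptges had the highest LPS rises of the 10 genes and Ptgs1 the deepest fall. Each run covers 250 bases before and 50 bases after the annotated start (RefSeq, GRCm38.p6), at chr1:150099781-150100080 on the plus strand for Ptgs2, chr2:30903248-30903547 on the minus strand for Ptges and chr2:36230176-36230475 on the plus strand for Ptgs1. The Ptges start used, 30903297, lies inside the bounds of the counted gene, whose upstream end is at 30929863. No promoter at that end was searched. Capitals mark letters that match TTNCNNAA (C/EBP), TGACG (the core of the cyclic AMP response element) or CACGTG (E-box) on either strand.
Ptgs2: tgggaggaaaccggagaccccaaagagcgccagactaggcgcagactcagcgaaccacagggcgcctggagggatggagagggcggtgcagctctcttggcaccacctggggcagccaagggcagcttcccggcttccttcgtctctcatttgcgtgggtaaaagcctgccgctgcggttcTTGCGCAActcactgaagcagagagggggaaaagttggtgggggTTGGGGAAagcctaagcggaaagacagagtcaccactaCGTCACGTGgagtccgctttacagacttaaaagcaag
Ptges: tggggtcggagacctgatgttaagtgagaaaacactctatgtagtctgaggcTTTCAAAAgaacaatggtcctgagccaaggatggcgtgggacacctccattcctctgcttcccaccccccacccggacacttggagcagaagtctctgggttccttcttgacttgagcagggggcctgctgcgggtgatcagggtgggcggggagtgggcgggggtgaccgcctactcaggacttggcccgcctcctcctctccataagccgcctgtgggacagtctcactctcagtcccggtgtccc
Ptgs1: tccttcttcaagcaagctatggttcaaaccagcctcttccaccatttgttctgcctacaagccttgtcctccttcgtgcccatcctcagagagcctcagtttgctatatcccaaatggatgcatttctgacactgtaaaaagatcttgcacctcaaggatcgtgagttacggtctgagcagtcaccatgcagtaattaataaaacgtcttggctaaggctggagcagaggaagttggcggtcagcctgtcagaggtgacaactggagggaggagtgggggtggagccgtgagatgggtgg
The Ptgs2 run holds TTGCGCAA at position -69 from the start, TTGGGGAA at -25, and CGTCA at 14, which overlaps the CACGTG at 17. The Ptges run holds 1 match, TTTCAAAA at -198, and the Ptgs1 run holds none of these motifs. Of the 32851 promoters of the same length in the table, 40.7% matched TTNCNNAA, 20.8% TGACG and 7.15% CACGTG, and of the 10 genes here 7, 2 and 2 did. TGACG was found at Ptgs2 and Ptges3, and CACGTG at Ptgs2 and Ptges2. The NF-kappaB pattern (GGG, any 5 bases, then CC), not capitalised, matched 50.8% of all promoters and 5 of the 10, among them Ptgs2 at -23, Ptges at -38 and Ptgs1 at 28, so all 3 runs shown hold it. TATAAA matched 13.6% of all promoters and 2 of the 10, and TGACGTCA (1.79%), TGANTCA for AP-1 (7.81%) and TGATGNAA (3.97%) matched none of the 10. A match is a description of letters in this window only.

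A pair of noncoding genes beside Ptgs2 was also lowest in control. Ptgs2os (ENSMUSG00000097028, chromosome 1, 150074873 to 150099963, minus strand) starts 68 bases upstream of the Ptgs2 start, inside the promoter run above, and is read away from it. It had 45.9, 30.2 and 53.0 normalized reads in LPS with NCT503, 72.6, 28.6 and 51.1 in LPS, and 0 reads in each control library. Taking 3 reads over the control group as the floor, its level was at least 59.4-fold higher in LPS with NCT503 and at least 70.1-fold higher in LPS than in control. The libraries of both LPS states overlapped, at -0.17 ± 0.37 with NCT503 against LPS (adjusted p = 0.750). Ptgs2os2 (ENSMUSG00000097754, chromosome 1, 150159043 to 150164948, minus strand), a long noncoding RNA 50816 bases beyond the end of Ptgs2, had 508, 246 and 551 normalized reads in LPS with NCT503, 188, 180 and 232 in LPS, and 2.05, 2.10 and 0.801 in control libraries. No library overlapped between the groups. It was at 6.30 ± 0.35 with LPS against control and at 1.04 ± 0.29 with NCT503 and LPS against LPS, given without a test because its level followed that of Ptgs2 over these libraries.

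**Figure D2:**
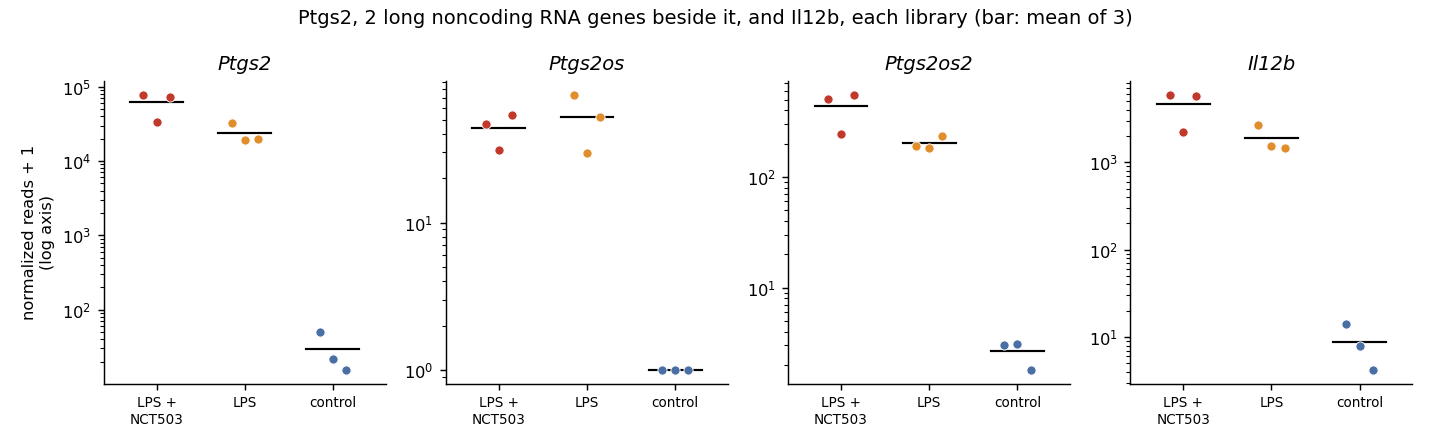
Normalized reads plus 1 (log axis) of Ptgs2, the noncoding genes Ptgs2os and Ptgs2os2, and Il12b in each library (points; bars are means of 3), with LPS with NCT503 left and control right. Ptgs2 and Ptgs2os2 are highest in LPS with NCT503, while Ptgs2os overlaps between both LPS states and has 0 reads in control.

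The genes whose levels followed Ptgs2 most closely over the 9 libraries, among 10168 genes that averaged 100 or more normalized reads in a state, were Il12b (Pearson r = 0.999), Clec4e (0.996), Ptgs2os2 (0.996), Epha4 (0.996) and Osbpl3 (0.995). These values describe libraries that share their treatment, and most of their range is the step between control and both LPS states. Il12b, which encodes the p40 subunit of IL-12, had 5926, 2215 and 5742 normalized reads in LPS with NCT503, 2660, 1536 and 1462 in LPS, and 13.0, 7.00 and 3.21 in control libraries. As for Ptgs2, library 2 was the lowest with NCT503, and for Il12b it fell inside the LPS range. Since these genes were picked for following Ptgs2 in the same libraries, their fold changes are given without a test. With NCT503 and LPS against LPS, Il12b was at 1.22 ± 0.36 and Clec4e, the receptor Mincle, at 0.99 ± 0.21. Epha4, an ephrin receptor, and Osbpl3, an oxysterol-binding protein relative, were at 0.33 ± 0.33 and 0.55 ± 0.20.

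Ptges (ENSMUSG00000050737, chromosome 2, 30889471 to 30929863, minus strand) encodes microsomal prostaglandin E synthase 1, the inducible enzyme that works with cyclooxygenase 2. It had 15807, 20007 and 12542 normalized reads in LPS with NCT503, 24279, 30965 and 24200 in LPS, and 38.9, 39.2 and 37.7 in control libraries. The 3 groups did not overlap, with LPS highest. LPS raised Ptges by 9.38 ± 0.15 over control (adjusted p = 2.80e-11), and with NCT503 it was lower than with LPS alone, at -0.73 ± 0.20 (adjusted p = 0.0166). That fall was not called under quantile normalization (-0.34, adjusted p = 0.193), without library 1 (adjusted p = 0.0516) or library 3 (0.0987) of LPS with NCT503, or without library 2 of LPS (0.0650). Even with NCT503, Ptges stood 8.64 ± 0.18 above control (adjusted p = 3.30e-09). Fibroblasts also express Ptgs2 and Ptges, and of the 8 markers of fibroblast and stromal cells, 4 rose in LPS against control cells and 2 fell with NCT503 against LPS. Their summed levels were 17422 to 43730 normalized reads in LPS with NCT503, 16666 to 36634 in LPS and 5867 to 26871 in control libraries, and their part in the values of both genes was not tested.

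Ptges2 (ENSMUSG00000026820, chromosome 2, 32395896 to 32405772, plus strand) encodes the second microsomal synthase, which is expressed constitutively in many tissues. It had 275, 435 and 249 normalized reads in LPS with NCT503, 484, 801 and 635 in LPS, and 321, 396 and 422 in control libraries. LPS libraries lay above those of both other groups, which overlapped each other. Ptges2 fell with NCT503 and LPS against LPS, at -1.01 ± 0.26 (adjusted p = 0.0107; 0.0582 without library 3 of LPS with NCT503 and 0.0573 without library 2 of LPS). LPS raised it by 0.74 ± 0.20 over control (adjusted p = 0.0120). That rise was 0.03 under CPM scaling (adjusted p = 0.869), or 0.66 after the shift of all genes is taken off. It was also not called without library 3 of LPS (adjusted p = 0.0526).

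Ptges3 (ENSMUSG00000071072, chromosome 10, 128058954 to 128077272, plus strand) encodes p23, a co-chaperone of HSP90 that is also described as the cytosolic synthase. It had 1708, 1276 and 1769 normalized reads in LPS with NCT503, 1549, 1186 and 1129 in LPS, and 682, 613 and 697 in control libraries. Both LPS states lay above control and overlapped each other. The value with NCT503 against LPS was 0.30 ± 0.20 (adjusted p = 0.271), and LPS raised Ptges3 by 0.95 ± 0.16 over control (adjusted p = 0.000605). CPM scaling gave this rise as 0.25 (adjusted p = 0.301), or 0.87 after the shift of all genes is taken off. The pseudogene Ptges3-ps may share reads with it. Of the 8 tested partners of p23 in the HSP90 cycle, 2 rose and 0 fell with NCT503 and LPS against LPS (median 0.31), Hsp90aa1 by 1.68 ± 0.25, and 4 rose under CPM scaling (median 0.55) and under quantile normalization (median 0.45). With LPS against control 5 rose and 1 fell (median 0.62, but -0.08 under CPM scaling and -0.06 under quantile normalization), Stip1 by 1.35 ± 0.14.

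**Figure D3:**
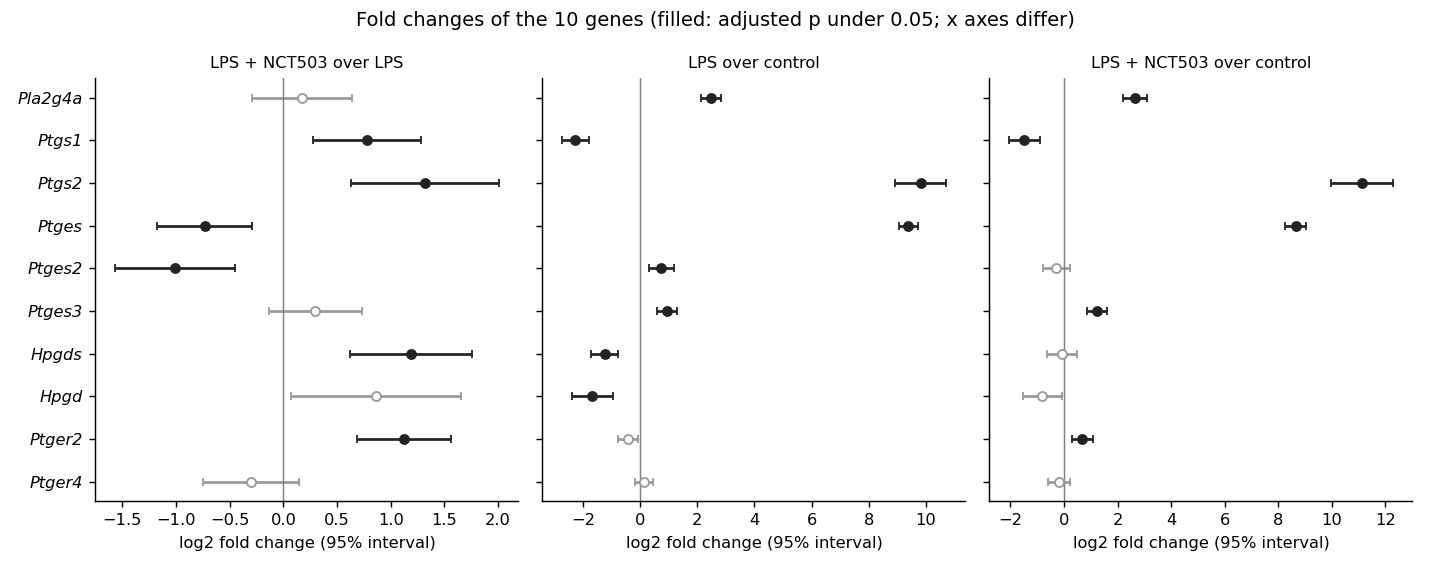
Log2 fold changes of the 10 genes with 95% intervals in LPS with NCT503 against LPS, LPS against control and LPS with NCT503 against control; the comparisons share libraries pairwise. Ptgs2 lies right of 0 in all 3 panels, while Ptges lies left of 0 with NCT503 against LPS and right of 0 in both comparisons with control.

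Hpgds (ENSMUSG00000029919, chromosome 6, 65117293 to 65144908, minus strand) encodes the hematopoietic synthase that makes prostaglandin D2. It had 1980, 1084 and 1886 normalized reads in LPS with NCT503, 925, 627 and 589 in LPS, and 2046, 1768 and 1273 in control libraries. LPS libraries lay below those of both other groups, which overlapped each other. Hpgds fell with LPS, at -1.24 ± 0.22 against control (adjusted p = 0.000686), and NCT503 with LPS raised it over LPS by 1.19 ± 0.26 (adjusted p = 0.00451), a rise that passed under all alternatives at 1.03 to 1.47. Against control the value with NCT503 was -0.06 ± 0.25 (adjusted p = 0.866), and 0.22 without library 2 of LPS with NCT503.

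Hpgds is also known from mast cells and megakaryocytes. All 7 measured mast cell and basophil markers fell with NCT503 against LPS, to a summed level of 479 to 606 normalized reads in LPS with NCT503 against 3800 to 5699 in LPS, with 1651 to 2324 in control libraries. With NCT503 the receptor chain genes Fcer1a and Ms4a2 were under 10 normalized reads in every library. The other 5 were not: Cpa3 and Mcpt8 stood at 29.1 to 61.4, Prss34 at 107 to 113, Kit at 139 to 156 and Hdc at 128 to 259, and Hdc lay above its control range of 56.7 to 74.5. The part of these cells in the Hpgds values was not tested.

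Hpgd (ENSMUSG00000031613, chromosome 8, 56294585 to 56321043, plus strand) encodes 15-hydroxyprostaglandin dehydrogenase, the enzyme that inactivates prostaglandin E2. It had 79.5, 40.6 and 76.8 normalized reads in LPS with NCT503, 23.04, 38.2 and 44.6 in LPS, and 81.3, 108 and 155 in control libraries, from 20 to 194 reads. Control libraries lay above all others, and library 2 with NCT503 fell inside the LPS range. Hpgd fell with LPS, at -1.67 ± 0.32 against control (adjusted p = 0.00146). With NCT503 and LPS against LPS it was at 0.87 ± 0.36 (adjusted p = 0.0881), and 1.18 without library 2 of LPS with NCT503 (adjusted p = 0.0172) or 1.10 under CPM scaling (adjusted p = 0.0303).

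Ptger2 (ENSMUSG00000037759, chromosome 14, 44988195 to 45003820, plus strand) encodes EP2, and Ptger4 (ENSMUSG00000039942, chromosome 15, 5206661 to 5244187, minus strand) encodes EP4, both receptors of prostaglandin E2 that raise cyclic AMP. Ptger2 had 831, 1063 and 735 normalized reads in LPS with NCT503, 422, 440 and 338 in LPS, and 501, 520 and 593 in control libraries. The 3 groups did not overlap, with LPS with NCT503 highest and LPS lowest. NCT503 with LPS raised Ptger2 over LPS by 1.12 ± 0.20 (adjusted p = 0.00128, called under all alternatives) and over control by 0.69 ± 0.18 (adjusted p = 0.0102). The rise over control was 0.24 under CPM scaling (adjusted p = 0.280), or 0.65 after the shift of all genes is taken off. It was also not called without library 2 of control (adjusted p = 0.0508). With LPS against control Ptger2 was at -0.43 ± 0.16 (adjusted p = 0.0561), and this was called under 7 alternatives. CPM scaling gave -1.13, or -0.50 after the shift of all genes is taken off.

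Ptger4 had 663, 448 and 671 normalized reads in LPS with NCT503, 665, 694 and 813 in LPS, and 667, 676 and 651 in control libraries. The 3 groups overlapped, with library 2 of LPS with NCT503 lowest. It was at -0.30 ± 0.20 with NCT503 against LPS (adjusted p = 0.285) and at 0.12 ± 0.15 with LPS against control (adjusted p = 0.531). The value against control was -0.58 under CPM scaling (adjusted p = 0.00827), or 0.05 after the shift of all genes is taken off, and -0.07 under quantile normalization. Exons of Ptger2 overlap Gm17173 and Gm49364, and those of Ptger4 overlap Ttc33 and Gm15937, all on the opposite strand, so their reads cannot be told apart.

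Levels of different genes are compared per kilobase of exon, within a library. In LPS with NCT503, Ptgs2 stood highest with a mean of 13415 normalized reads per kilobase, above Ptges with 4100 and Ptges3 with 715. In LPS, Ptges with 6737 and Ptgs2 with 5203 overlapped, followed by Ptges3 with 581. In control, Ptges3 with 299 came first, overlapping Hpgds, and Ptges with 9.82 and Ptgs2 with 6.16 came last, overlapping each other. Below the first 3 ranks, Pla2g4a, Hpgds and Ptger2 followed in LPS with NCT503 with overlapping libraries, and Hpgd was lowest in both LPS states.

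Ratios between paired enzymes and between the receptors are given as descriptions. The ratio of Ptgs2 to Ptgs1 per kilobase averaged 245 (92.9 to 357) in LPS with NCT503, 150 (121 to 202) in LPS and 0.0339 (0.0200 to 0.0450) in control libraries, and both LPS states overlapped. Ptgs2 thus made up 99.4% of both cyclooxygenases in LPS with NCT503, 99.3% in LPS and 3.27% in control. The ratio of Ptgs2 to Ptges averaged 3.55 (1.45 to 4.99) in LPS with NCT503, 0.795 (0.524 to 1.16) in LPS and 0.624 (0.329 to 1.08) in control, so that only the libraries with NCT503 were all above 1.16. Ptges made up 83.5 ± 4.76% of the 3 prostaglandin E synthases in LPS with NCT503, 90.4 ± 1.67% in LPS and 2.56 ± 0.195% in control (SD, n = 3 each). The ratio of Ptger2 to Ptger4 averaged 2.84 (1.98 to 4.28) in LPS with NCT503, 1.01 (0.751 to 1.15) in LPS and 1.46 (1.36 to 1.64) in control, and no groups overlapped. The files give Ptger2 a length of 3684 bases and GENCODE M21 an exon union of 5193, and with the longer length these means were 2.01, 0.719 and 1.04. No test was made of these ratios.

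**Figure D4:**
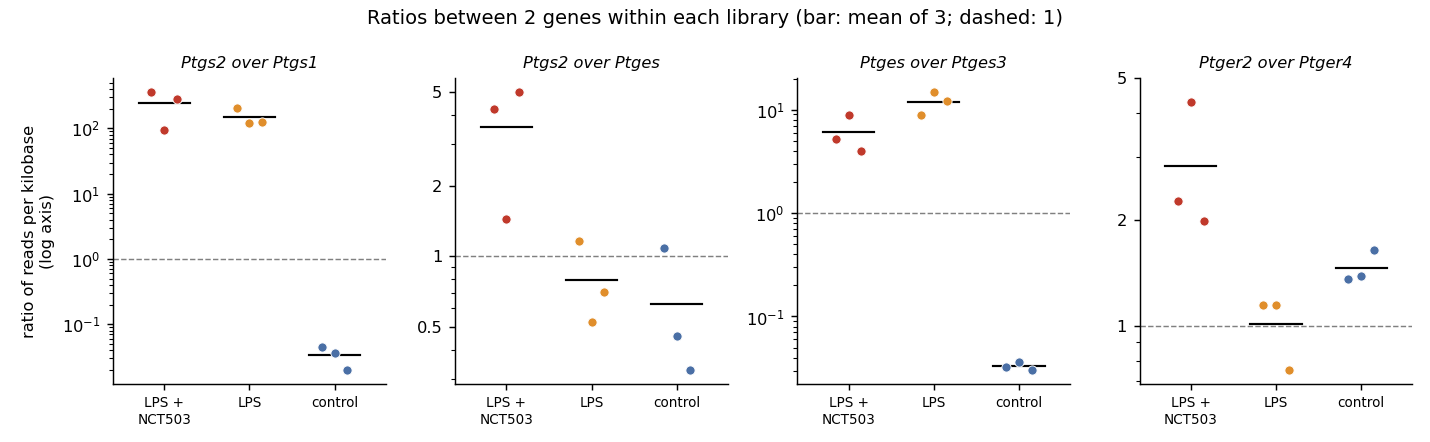
Within-library ratios per kilobase (log axis) of Ptgs2 to Ptgs1, Ptgs2 to Ptges, Ptges to Ptges3 and Ptger2 to Ptger4, with LPS with NCT503 left, LPS in the middle and control right. The Ptgs2 to Ptges ratio is 1.45 to 4.99 with NCT503 and 0.524 to 1.16 with LPS, and the Ptger2 to Ptger4 ratio is highest with NCT503 and lowest with LPS.

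Set against control, LPS with NCT503 called 6 of the 10 genes. Pla2g4a (2.64 ± 0.20), Ptgs2 (11.13 ± 0.49), Ptges (8.64 ± 0.18), Ptges3 (1.24 ± 0.17) and Ptger2 (0.69 ± 0.18) rose and Ptgs1 fell. Not called were Ptges2 (-0.28 ± 0.23, but -0.73 and called under CPM scaling and -0.53 and called without library 2 of LPS with NCT503), Hpgds, Hpgd (-0.81 ± 0.33, adjusted p = 0.0716, but -1.26 and called under CPM scaling and -1.03 and called without library 1 of control) and Ptger4 (-0.19 ± 0.18, but -0.64 and called under CPM scaling). Of all 19930 genes 40.4% were called (20.7% higher and 19.7% lower). By libraries that did not overlap, 5 members were higher and 2 lower, against 25.3% and 24.9% of all genes. The median was 0.31 over the 10 genes and 0.05 over all genes. CPM scaling gave 4 higher and 4 lower members with a median of -0.14, and 2452 higher and 6568 lower genes in all, against 4134 and 3927. This comparison shares its libraries with both others, so its values are set beside theirs and are no separate support.

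The other genes of the pathway were taken as lists, and no set test was made. The lists were chosen with earlier results of these data known. Unless said otherwise, the genes named are among those with the smallest p of their list. Their adjusted p-values describe these genes and are no separate support for a list. Of all genes, 16.9% were called higher and 15.7% lower with NCT503 and LPS against LPS (median 0.08). With LPS against control 20.5% were called higher and 21.4% lower (median -0.05). Each list count, with those of the cell markers and the p23 partners above, is to be read beside these shares. Of 13 further phospholipases A2 tested, 5 rose and 3 fell with NCT503 and LPS against LPS (median 0.48). Pla2g15, the lysosomal enzyme, had 10247, 13161 and 9877 normalized reads in LPS with NCT503, 1670, 2220 and 2342 in LPS, and 8974, 11105 and 12475 in control libraries. It fell with LPS and with NCT503 overlapped control, at 2.42 ± 0.19 over LPS (adjusted p = 5.29e-06). Pla2g16 went the opposite way, at -1.58 ± 0.21 with NCT503 against LPS and 3.07 ± 0.18 with LPS against control. In that second comparison 2 phospholipases rose and 3 fell (median -0.41; 4 and 3 under quantile normalization).

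Enzymes that release arachidonate by other routes or put it back into lipids gave 2 higher and 6 lower of 14 with NCT503 and LPS against LPS (median -0.50). With LPS against control 6 rose and 4 fell of 13 (median 0.34, but -0.39 under CPM scaling). Daglb, a diacylglycerol lipase, had 1959, 2257 and 2118 normalized reads in LPS with NCT503, 176, 333 and 271 in LPS, and 2306, 2962 and 3249 in control libraries. It was thus lowest with LPS and stood 3.06 ± 0.23 higher with NCT503 (adjusted p = 3.70e-06). Lpcat2, a lysophospholipid acyltransferase of macrophages, was -1.30 ± 0.17 with NCT503 against LPS and 2.12 ± 0.15 with LPS against control. The acyl-CoA synthetase Acsl1 rose by 5.12 ± 0.14 with LPS and was at 0.01 with NCT503 against LPS.

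Of the 8 other terminal prostanoid synthases tested, 3 rose and 0 fell with NCT503 and LPS against LPS (median 0.58). The counts were 5 and 0 under CPM scaling, and 2 and 1 without library 2 of LPS with NCT503. With LPS against control 0 rose and 3 fell (median -0.80), with 5 lower under TMM scaling and 7 lower under CPM scaling (median -1.42). Cbr1, a carbonyl reductase that can turn prostaglandin E2 into F2α, stood 1.94 ± 0.20 higher with NCT503 and LPS than with LPS and was lower with LPS than in control (-1.37 ± 0.18). The thromboxane synthase Tbxas1 fell with LPS (-1.18 ± 0.14) and was at 0.45 with NCT503 against LPS (adjusted p = 0.0623). Transport and breakdown genes split 3 higher and 3 lower of 7 with NCT503 and LPS against LPS, and 3 and 1 with LPS against control (2 and 3 under CPM scaling). Ptgr1, a reductase in the breakdown of prostaglandins and leukotriene B4, had 2261, 2700 and 2011 normalized reads in LPS with NCT503, 486, 653 and 546 in LPS, and 458, 615 and 826 in control libraries. Only the libraries with NCT503 stood apart, at 2.05 ± 0.19 over LPS (adjusted p = 1.38e-05). Slco3a1, an organic anion transporter that carries prostaglandins, rose by 5.68 ± 0.15 with LPS and was lower with NCT503 and LPS than with LPS (-1.64 ± 0.18).

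Other prostanoid receptors and related genes gave 2 higher and 0 lower of 7 with NCT503 and LPS against LPS. The 2 were the nuclear receptor gene Pparg (1.57 ± 0.21) and Ptgfrn (0.90 ± 0.26). Without library 2 of LPS with NCT503 the counts were 2 and 1. LPS against control gave 1 higher, Ptgir, and 1 lower, Pparg (-2.75 ± 0.17), or 1 and 3 under CPM scaling. Ptgir, the prostacyclin receptor, had 952, 987 and 846 normalized reads in LPS with NCT503, 1189, 1372 and 1234 in LPS, and 206, 247 and 246 in control libraries. It rose with LPS by 2.44 ± 0.15 and was at -0.44 with NCT503 against LPS (adjusted p = 0.0593). Of the 22 genes of cyclic AMP signalling below EP2 and EP4, 7 rose and 5 fell with NCT503 and LPS against LPS (8 and 3 under CPM scaling), and 6 rose and 10 fell with LPS against control (3 and 12 under CPM scaling). Rapgef3, which encodes the cyclic AMP sensor EPAC1, had 1856, 1810 and 1685 normalized reads in LPS with NCT503, 96.8, 125 and 122 in LPS, and 383, 407 and 397 in control libraries. No group overlapped another, and the rise with NCT503 over LPS was 3.95 ± 0.18 (adjusted p = 2.45e-07). The phosphodiesterase Pde4b rose by 5.61 ± 0.24 with LPS. Genes known to respond to cyclic AMP gave 4 higher and 3 lower of 13 with NCT503 and LPS against LPS (median -0.18, but 0.07 under CPM scaling and 0.21 without library 2 of LPS with NCT503), with Vegfa at 2.76 ± 0.20 and Fos at -2.05 ± 0.19. With LPS against control 11 rose and 1 fell (median 1.59). The counts were 8 and 2 under CPM scaling (median 0.91) and under quantile normalization (median 1.36).

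Factors known to act on Ptgs2 itself were taken as 2 lists. Of 22 transcription factors 15 rose and 2 fell with LPS against control (median 1.67), and 5 fell under CPM scaling (median 0.97) and under quantile normalization (median 0.99). Nfkb2 rose by 4.03 ± 0.17 and Egr1 by 3.17 ± 0.16. With NCT503 and LPS against LPS, 6 rose and 6 fell (median 0.15). Cebpd, a C/EBP factor, had 498, 759 and 472 normalized reads in LPS with NCT503, 3110, 6093 and 3286 in LPS, and 273, 321 and 360 in control libraries, and was lower with NCT503 than with LPS (-2.81 ± 0.27, adjusted p = 2.13e-05). Usf1, next in the list by p, was lower as well (-1.68 ± 0.17, adjusted p = 2.42e-05). Atf4, of the integrated stress response, rose by 1.37 ± 0.17. Of 13 RNA-binding proteins known to act on Ptgs2 mRNA, 5 rose and 2 fell with NCT503 and LPS against LPS (median -0.20, but 0.04 under CPM scaling), and 5 rose and 5 fell with LPS against control (2 and 7 under CPM scaling). Zfp36, which encodes tristetraprolin, a factor that destabilises AU-rich mRNAs, had 9082, 5441 and 7625 normalized reads in LPS with NCT503, 14357, 19893 and 17905 in LPS, and 1477, 1650 and 1844 in control libraries. It was lower with NCT503 than with LPS (-1.25 ± 0.22, adjusted p = 0.00112), and so was the endonuclease gene Zc3h12a (-0.73 ± 0.18, adjusted p = 0.00972); no other gene of the list fell. Zfp36l2, of the same family as Zfp36, had the smallest p of the list and went the opposite way, with 11699, 10408 and 13611 normalized reads in LPS with NCT503, 3178, 4161 and 3544 in LPS, and 7657, 8025 and 7871 in control libraries. It was higher with NCT503 than with LPS by 1.72 ± 0.18 (adjusted p = 3.43e-05), and Tia1, Celf2, Rc3h1 and Tial1, named after their values were seen, rose by 0.65 to 0.96.

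**Figure D5:**
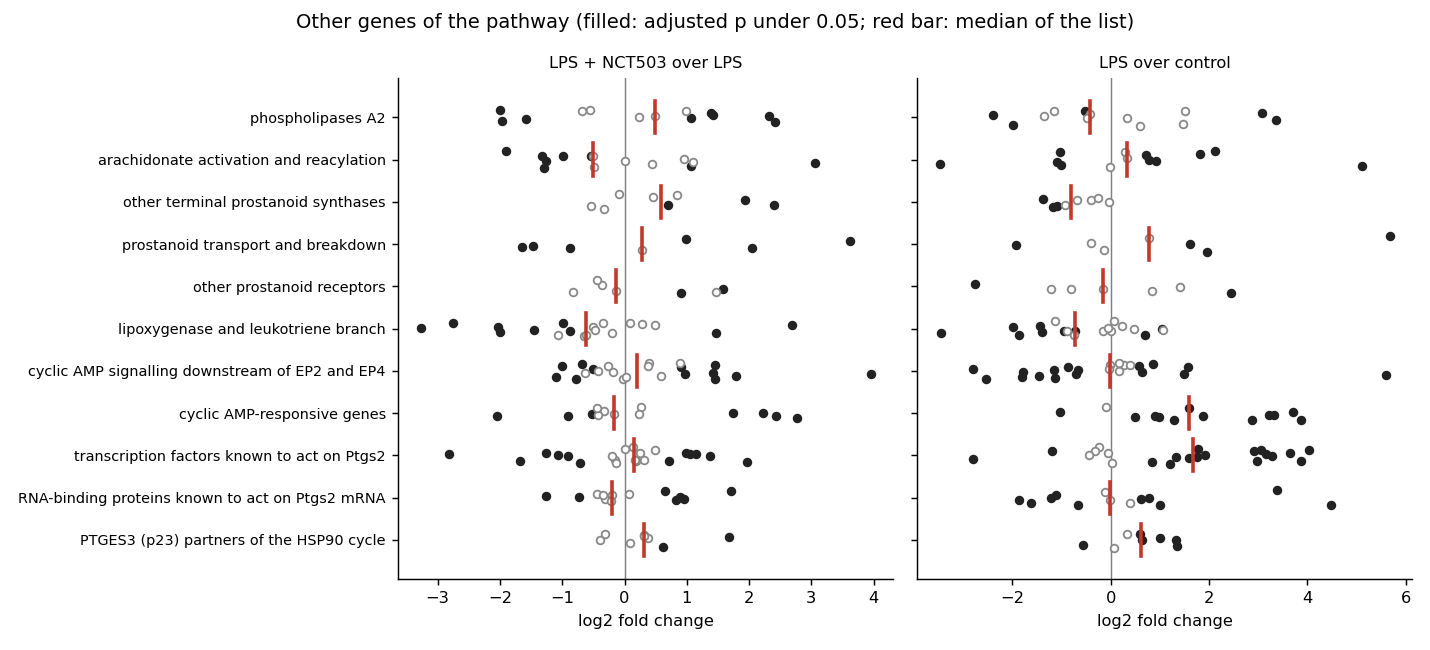
Log2 fold changes of each tested gene of the pathway lists in LPS with NCT503 against LPS and in LPS against control, with list medians; filled points are called at an adjusted p under 0.05. The transcription factors known to act on Ptgs2 have a median of 0.15 with NCT503 against LPS and of 1.67 with LPS against control (0.97 under CPM scaling).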

How the data were processed

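RNA-seq was deposited for 9 libraries, 3 in each of 3 states of mouse macrophages. TopHat2 served as aligner and mm10 as genome, per the submitters' processing notes. Versions, annotation, strand setting, read counter and the authors' differential test (not given in the sources used here) are unknown. Per the file headers and the values, the authors deposited, for LPS against control (23001 genes) and for LPS with NCT503 against LPS (22620 genes), a signal per gene and library (reads divided by a size factor), the gene length in bases and their own log2 fold changes and p-values, which are not used in the results above. In every library column 100% of the signal values were whole multiples of 1 read (tolerance 0.001), and the reads of the LPS libraries were the same in both tables.

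The 2 tables were tested separately with limma 3.58.1 (R 4.3.3; trend and robust) on log2(signal + 1), with genes of a mean of at least 1 in a group and Benjamini-Hochberg adjustment over all genes tested. A fold change on this scale understates that of low genes. LPS with NCT503 against control, and all levels, used the recovered reads scaled by median-of-ratios factors over the 9 libraries (0.733 to 1.46). The design allowed for raw or normalized values; the values were normalized, so limma gives the results and edgeR 4.0.16 and DESeq2 1.42.0 on the recovered reads are alternatives. The procedure was also run on simulated reads in which few genes changed, in both directions. Far more genes were called in the data, so that run does not bear on the choice of scaling. Intervals are 95%.

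The 10 genes and all lists were chosen with earlier results of these data known. Named from each list are up to 3 genes with the smallest p in each table, plus the 5 genes most like Ptgs2; Ptgs2os was chosen as the neighbour of Ptgs2 after its values were seen. Whether replicate numbers pair the libraries is not known, and they were not used as pairs. Alternatives were other pseudocounts, filters, scalings and tools, one fit of all 9 libraries, a replicate block, and leaving out each library. Promoters and motif searches used RefSeq promoters of GRCm38.p6, gene positions GENCODE M21 (99.7% of identifiers matched).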

Additional observations from a re-analysis of the deposited data

How the results depend on the processing

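Of 530 values of the 10 genes under the alternatives, 488 kept their direction and side of the threshold, 20 lost the call, 17 gained one and 5 changed sign. The sign changes were all of values not called in the fits reported above: Ptger4 with LPS against control under CPM scaling (-0.58) and quantile normalization (-0.067), Ptger4 with NCT503 against control without library 2 of LPS with NCT503 (0.00499; -0.29 to 0.00499 over the libraries left out), and Hpgds with NCT503 against control without that library (0.22) or without library 1 of control (0.09; -0.25 to 0.22). The cause was not tested. At an adjusted p under 0.01, LPS with NCT503 against LPS called 3 of the 10 genes and 3963 genes in all, and against control 5340 genes in all. Leaving out 1 library at a time gave 3 to 7 of the 10 genes and 4334 to 7304 of all genes with NCT503 and LPS against LPS, 7 to 9 and 6432 to 8553 with LPS against control, and 5 to 7 and 5808 to 9141 with NCT503 and LPS against control. On the recovered reads edgeR called 6098 genes for LPS with NCT503 against LPS and 7769 for LPS against control. CPM scaling moved the median of all genes by 0.22 with NCT503 and LPS against LPS, with 4405 higher and 2137 lower calls against 3351 and 3098.

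Same-numbered libraries deviated together only in part (r = 0.197, 0.176 and -0.0410 between LPS with NCT503 and LPS), so the numbers were not used as pairs, and not every library correlated best with its own number. With a replicate block the counts were 7, 9 and 7 of the 10 genes, and 8186, 9714 and 8098 genes in all, for LPS with NCT503 against LPS, LPS against control and LPS with NCT503 against control. The block added Hpgd with NCT503 and LPS against LPS (adjusted p = 0.0422) and against control (0.0261), and Ptger2 with LPS against control (0.0150).

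Reads were fewest for Hpgd (20 to 194 a library), for Ptgs2 (18 to 72) and Ptges (47 to 57) in control and for Ptgs1 in LPS (97 to 119), which limits the precision there, and 3 libraries a group limit all 10 genes.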

Other observations

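The lipoxygenase branch, which turns the same arachidonic acid into leukotrienes and other products, was taken with related genes as a further list. Of its 19 tested genes, 2 rose and 7 fell with NCT503 and LPS against LPS (median -0.61), and 2 rose and 7 fell with LPS against control (median -0.72, and 0 rose and 10 fell under CPM scaling). The shares over all genes are those given with the other lists. These counts do not describe leukotriene synthesis alone, and some genes of the list were near the floor. Alox12e had 0 normalized reads in each library of LPS with NCT503 and 5.76 to 15.7 in LPS. Alox15 had 0 to 2.16 in LPS with NCT503 and 9.55 to 18.4 in LPS. Alox5, the 5-lipoxygenase, had 23.4, 40.6 and 36.8 normalized reads in LPS with NCT503, 115, 139 and 153 in LPS, and 119, 108 and 119 in control libraries. Only the libraries with NCT503 were low, at -2.004 ± 0.28 against LPS (adjusted p = 0.000282, limma). Cysltr1, a receptor of cysteinyl leukotrienes, was at -2.03 ± 0.23 (adjusted p = 5.37e-05). Lta4h, which makes leukotriene B4, had 766, 806 and 781 normalized reads in LPS with NCT503, 290, 263 and 299 in LPS, and 1217, 1066 and 1127 in control libraries. It fell with LPS (-1.99 ± 0.15) and was 1.46 ± 0.17 higher with NCT503 and LPS than with LPS. Alox5 and Cysltr1 are also known from neutrophils, eosinophils and mast cells. Neutrophil markers summed to 271 to 572 normalized reads in LPS with NCT503, 2522 to 5994 in LPS and 4202 to 7087 in control libraries, and eosinophil markers to 11.4 to 17.3 in LPS with NCT503, 411 to 682 in LPS and 303 to 406 in control libraries. Their part in these values was not tested.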
